A study of Mus musculus with 16 samples.

Results

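The 10 late neutrophil granule genes described here are S100a8, S100a9, Ngp, Ltf, Camp, Lcn2, Retnlg, Mmp8, Mmp9 and Chil3, chosen by name as genes of the secondary and tertiary granules and of calprotectin. They are 10 of the 50686 Ensembl gene IDs in both deposited tables, and all 10 were among the 15308 genes with enough counts to be tested. Haematopoietic stem cells (HSCs) were sorted from the marrow of C57BL/6J mice and their RNA sequenced, with 4 libraries in each of 4 groups. The combination group (PD+RAP) received palbociclib at 30.4 mg/kg and rapamycin at 6.4 mg/kg, the palbociclib group (PD) the first drug alone at 30.4 mg/kg, the rapamycin group (RAP) the second alone at 6.4 mg/kg, and the vehicle group neither. All 4 groups were injected intraperitoneally with 100 uL of 20% DMSO and 40% PEG 400 in PBS every 48 h over 85 days. Palbociclib inhibits the kinases CDK4 and CDK6 that start the cell cycle, and rapamycin inhibits mTOR, a kinase that couples growth to nutrients. The age and sex of the mice are not in the labels, nor is it stated whether 1 mouse gave 1 library. The p-values below therefore rest on the spread between libraries, part of which may be technical.

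Neutrophils build their granules in sequence as they mature in the marrow. Azurophil (primary) granules, with enzymes such as myeloperoxidase and neutrophil elastase, form in promyelocytes. Secondary granules, with lactoferrin and cathelicidin, form in myelocytes, and tertiary granules, with gelatinase, form later still, in metamyelocytes and band cells, as successive sets of genes are switched on and off. Calprotectin, made of S100a8 and S100a9, is the most plentiful protein of the neutrophil cytosol. These genes are textbook markers of the maturing neutrophil and not of the stem cell.

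The libraries held 10133860 to 15328830 counts, and 16570 to 20418 genes were detected in each. Each library was made from 10000 cells in G0/G1, sorted on Sca-1, CD117, CD150 and CD48 after lineage-positive cells were depleted. Stem cell markers were present beside the granule genes, with Kit at 33.5 to 173 TPM (a level scaled to library size and transcript length), Slamf1, which encodes CD150, at 5.83 to 28.9 TPM, and Procr at 29.5 to 153 TPM over the 16 libraries. Ly6g, a surface marker of neutrophils, ran from 25.8 to 209 TPM, and no library was at 0. Markers of stem cells and of neutrophils were thus both detected in every library. In such bulk RNA, fewer cells of a type and less RNA per cell cannot be told apart.

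Between 0.781% and 8.46% of a library's counts fell on the 10 genes. Their share was 2.09%, 1.05%, 5.86% and 4.93% in combination libraries 1 to 4, 8.46%, 1.2%, 7.44% and 5.88% in palbociclib libraries, 0.781%, 5.27%, 3.06% and 5.64% in rapamycin libraries, and 1.16%, 5.46%, 2.66% and 2.15% in vehicle libraries. Each group held both a library at 1.2% or less and a library at 5.46% or more, and all 4 groups overlapped. The group means were 3.48% ± 2.28 for combination, 5.74% ± 3.21 for palbociclib, 3.69% ± 2.25 for rapamycin and 2.86% ± 1.84 for vehicle (SD, n = 4 each). On the TPM scale the mean shares were 6.16%, 9.81%, 6.5% and 4.71% in the same order of groups.

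The calprotectin genes had the highest median levels of the 10, although in vehicle 3 Ngp, at 9566 TPM, was above S100a8, at 8750 TPM, and S100a9, at 9345 TPM. S100a8 (ENSMUSG00000056054, GRCm38 chr3:90668978-90670035) encodes the smaller subunit of this calcium- and zinc-binding complex. S100a8 had 14270, 6764, 36980 and 27840 TPM in combination libraries 1 to 4, 46840, 5965, 44680 and 31850 TPM in palbociclib libraries, 4637, 34090, 12820 and 31810 TPM in rapamycin libraries and 6102, 33790, 8750 and 12410 TPM in vehicle libraries. S100a9 had 11650, 6397, 29590 and 24890 TPM in combination libraries 1 to 4, 38420, 5712, 36930 and 29460 TPM in palbociclib libraries, 4583, 31430, 12850 and 30490 TPM in rapamycin libraries and 5057, 26400, 9345 and 10170 TPM in vehicle libraries. S100a9 (ENSMUSG00000056071, chr3:90692632-90695721), the partner subunit, lies 22.6 kb from S100a8. In every library S100a8 was among the 10 and S100a9 among the 11 genes of highest TPM. Their lowest level was in rapamycin 1 and their highest in palbociclib 1, 10.1-fold apart for S100a8 and 8.38-fold for S100a9, and high and low libraries occurred in each group.

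Ngp, Camp, Ltf and Lcn2, genes of secondary granules, are given next. Ngp (ENSMUSG00000032484, chr9:110419747-110423012) encodes neutrophilic granule protein, a relative of the cystatins and cathelicidins. Ngp had 3992, 2506, 11200 and 11680 TPM in combination libraries 1 to 4, 26240, 4217, 18870 and 16220 TPM in palbociclib libraries, 1981, 11470, 9610 and 15630 TPM in rapamycin libraries and 3648, 15150, 9566 and 4710 TPM in vehicle libraries. Camp (ENSMUSG00000038357, chr9:109847379-109849617) encodes the cathelicidin precursor, from which an antimicrobial peptide is cut. Camp had 1082, 702.3, 2717 and 2883 TPM in combination libraries 1 to 4, 11700, 1478, 6620 and 5662 TPM in palbociclib libraries, 981.2, 5934, 5242 and 6800 TPM in rapamycin libraries and 1577, 5290, 5858 and 1520 TPM in vehicle libraries. The combination libraries, at 702.3 to 2883 TPM of Camp, included the lowest of the 16, and each other group held libraries both below and above 2883 TPM. Ltf (ENSMUSG00000032496, chr9:111019271-111042767) encodes lactoferrin, which withholds iron from microbes. Ltf had 1242, 788.3, 2244 and 2602 TPM in combination libraries 1 to 4, 6772, 1169, 5689 and 5125 TPM in palbociclib libraries, 503, 2309, 2049 and 4279 TPM in rapamycin libraries and 1253, 3862, 1882 and 1257 TPM in vehicle libraries. The 3 highest Ltf levels of all were palbociclib 1, 3 and 4, and palbociclib 2 lay among the low ones. Lcn2 (ENSMUSG00000026822, chr2:32384633-32388252) encodes lipocalin 2, which binds bacterial siderophores. Lcn2 had 2459, 1107, 5435 and 4581 TPM in combination libraries 1 to 4, 6058, 748.7, 6966 and 5192 TPM in palbociclib libraries, 717.1, 3502, 2035 and 4634 TPM in rapamycin libraries and 1018, 3828, 1803 and 2449 TPM in vehicle libraries. Lcn2 was lowest in rapamycin 1 and highest in palbociclib 3. Camp, Ngp and Ltf lie in this order on chromosome 9, with gaps of 570130 and 596259 bases.

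The granule collagenase and gelatinase were the 2 least abundant members. Mmp8 (ENSMUSG00000005800, chr9:7558456-7568485) encodes neutrophil collagenase. Mmp8 had 135, 119.4, 763 and 730.8 TPM in combination libraries 1 to 4, 187, 59.77, 437.9 and 272.9 TPM in palbociclib libraries, 35.87, 211.5, 154.7 and 258.2 TPM in rapamycin libraries and 31.78, 130.3, 223 and 115.1 TPM in vehicle libraries. The 2 highest levels of Mmp8, 763 and 730.8 TPM, were combination libraries 3 and 4, while combination 1 and 2 lay inside the range of the other groups. Mmp9 (ENSMUSG00000017737, chr2:164940780-164955850) encodes gelatinase B, the enzyme after which tertiary granules are also called gelatinase granules. Mmp9 had 142.6, 101.1, 338.4 and 284.4 TPM in combination libraries 1 to 4, 207.5, 45.36, 207.4 and 210.3 TPM in palbociclib libraries, 27.36, 123.3, 103.8 and 206.6 TPM in rapamycin libraries and 34.81, 199.7, 85.11 and 87.92 TPM in vehicle libraries. The highest 2 levels were again combination 3 and 4, and the lowest was rapamycin 1. Retnlg (ENSMUSG00000022651, chr16:48872621-48874496) encodes a secreted resistin-like protein of marrow and neutrophils. Retnlg had 1001, 1206, 3099 and 3392 TPM in combination libraries 1 to 4, 1634, 459.3, 2016 and 1307 TPM in palbociclib libraries, 432.4, 2533, 1160 and 2452 TPM in rapamycin libraries and 341.8, 2291, 1256 and 590.4 TPM in vehicle libraries. Retnlg was highest in combination 4 and lowest in vehicle 1. Chil3 (ENSMUSG00000040809, chr3:106147554-106167564) encodes the chitinase-like protein Ym1 of myeloid cells. Chil3 had 2900, 518.3, 9312 and 6853 TPM in combination libraries 1 to 4, 4121, 688.5, 6749 and 5060 TPM in palbociclib libraries, 461.2, 3988, 3743 and 3576 TPM in rapamycin libraries and 611.3, 2390, 1978 and 1410 TPM in vehicle libraries. Rapamycin 2, 3 and 4 lay close together and rapamycin 1 far below them. Its near-identical relative Chil4 held 143 counts in all, against 766785 for Chil3, so the pair's counts lay almost wholly on Chil3.

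**Figure D1:**
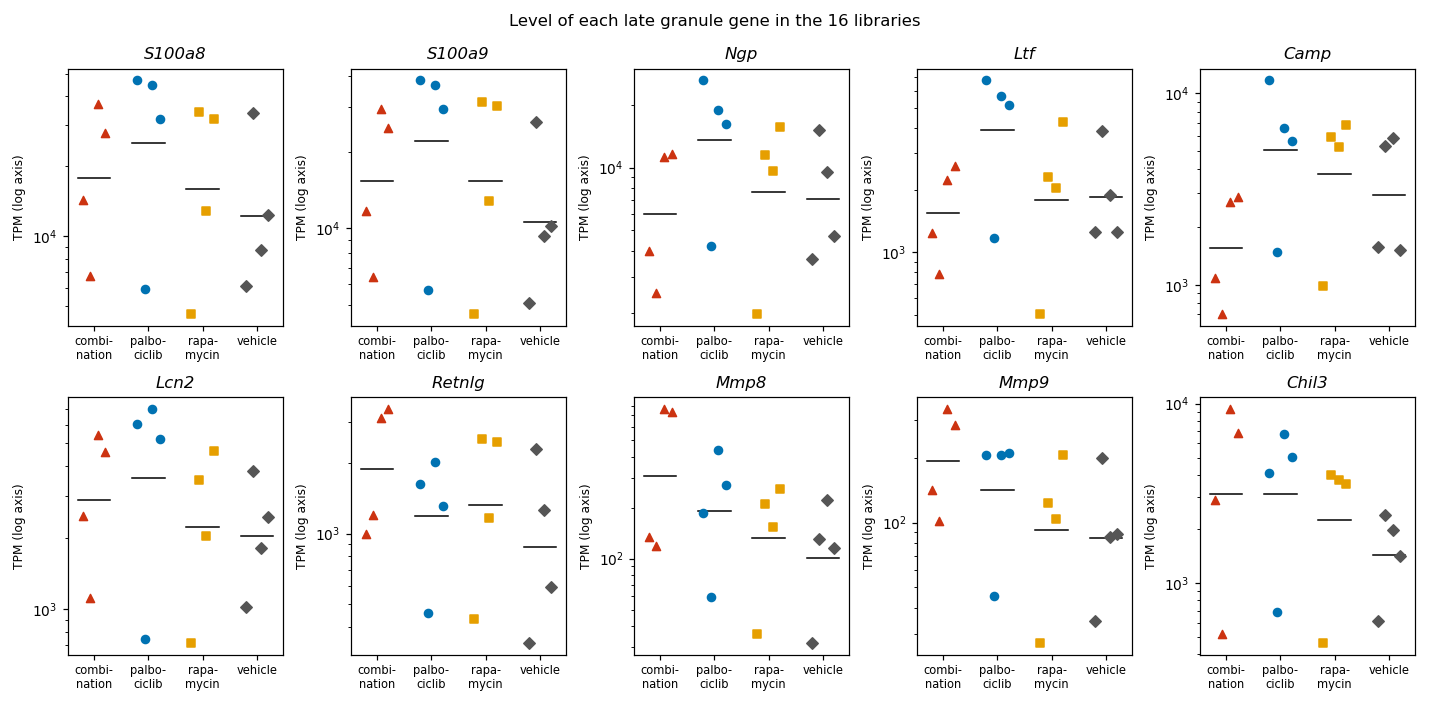
Level of each of the 10 genes in TPM on log axes, with a point for each of the 4 combination, 4 palbociclib, 4 rapamycin and 4 vehicle libraries and a bar at the group's geometric mean. Low and high libraries occur within each group, such as palbociclib 2 and rapamycin 1 at the low end, and the groups overlap for every gene.

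The promoters of 5 of the genes are shown because their levels move together or apart in the ratios described further on. They are the parts of RefSeq's 300-base windows (250 bases before to 50 after each start, build GRCm38.p6) that lie before the first annotated exon, written 5′ to 3′ on the gene's strand. Capitals mark matches to TTNNGNAA on either strand, a core shared by many sites of the C/EBP factors that act in granulocytes. S100a8 and S100a9 kept a steady ratio. Ngp and Camp are 2 of the secondary granule genes, besides Ltf, whose ratios to other members are described for the combination libraries. Mmp8 had the widest ratio to Camp.
S100a8 (chr3:90668821-90668977, plus strand, calprotectin): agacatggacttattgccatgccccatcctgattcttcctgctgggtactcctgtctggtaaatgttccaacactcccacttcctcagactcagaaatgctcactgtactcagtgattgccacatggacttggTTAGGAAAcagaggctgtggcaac
S100a9 (chr3:90695722-90695971, minus strand, calprotectin): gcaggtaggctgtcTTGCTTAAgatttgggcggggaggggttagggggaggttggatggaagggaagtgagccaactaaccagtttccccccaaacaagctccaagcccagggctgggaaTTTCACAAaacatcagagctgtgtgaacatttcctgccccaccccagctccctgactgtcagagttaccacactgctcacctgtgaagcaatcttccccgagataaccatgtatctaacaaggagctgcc
Ngp (chr9:110419558-110419746, plus strand, secondary granule): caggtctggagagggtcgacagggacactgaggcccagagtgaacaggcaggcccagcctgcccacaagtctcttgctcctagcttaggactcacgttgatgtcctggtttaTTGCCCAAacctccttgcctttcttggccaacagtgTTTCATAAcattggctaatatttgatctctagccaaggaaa
Camp (chr9:109849618-109849706, minus strand, secondary granule): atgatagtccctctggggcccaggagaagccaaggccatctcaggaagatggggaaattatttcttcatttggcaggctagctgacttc
Mmp8 (chr9:7558179-7558428, plus strand, collagenase): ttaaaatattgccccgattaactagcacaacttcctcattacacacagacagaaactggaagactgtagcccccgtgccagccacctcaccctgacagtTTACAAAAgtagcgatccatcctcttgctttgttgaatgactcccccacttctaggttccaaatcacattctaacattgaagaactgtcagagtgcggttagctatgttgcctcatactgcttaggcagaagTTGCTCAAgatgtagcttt
Windows were found for 9 of the 10 genes. The letters TTNNGNAA occurred in the full windows of 8 of these 9, with Camp the one without, against 40.7% of 32851 mouse windows. AGGAAG, a core of ETS factors such as PU.1, occurred in 6 of 9, against 35.4% of all windows, TGTGGT, a core of RUNX factors, in 2 of 9, against 16.8%, and AGATAA, a core of GATA factors, in 3 of 9, against 11.2%. All 4 were searched on both strands. A match describes the letters of these windows, and nothing in the data measured binding there.

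Over the 16 libraries the median TPM ran in the order S100a8 (21060), S100a9 (18870), Ngp (10400), Camp (4062), Chil3 (3238), Lcn2 (2980), Ltf (2147), Retnlg (1282), Mmp8 (170.9) and Mmp9 (133). S100a8 exceeded S100a9 in 14 of 16 libraries by a small but steady margin, a mean log2 ratio of 0.163 ± 0.137 (SD, n = 16). Ngp exceeded Camp, and Retnlg exceeded Mmp8, in all 16 libraries. The neighbours Camp and Chil3, Chil3 and Lcn2, Lcn2 and Ltf, Ltf and Retnlg, and Mmp8 and Mmp9 had mean log2 ratios smaller than their SD over the libraries, and their order varied between libraries. Chil3, for instance, exceeded Lcn2 in 6 of 16 libraries. The largest span was that of Mmp8, 24.0-fold between the highest and the lowest library, followed by Chil3 at 20.2-fold and Camp at 16.7-fold.

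These spans occurred mostly within groups. After group means were removed, the SD of log2 CPM (counts scaled to library size) was 1.15 for Ltf to 1.59 for Chil3, against a median of 0.467 over the 12709 tested genes whose log2 CPM averaged 1 or more. Each of the 10 genes varied more within groups than 86.3% to 94.3% of those genes did. The libraries that were low for one gene were mostly low for the others. Rapamycin 1 had the lowest level of S100a8, S100a9, Ngp, Ltf, Lcn2, Mmp9 and Chil3. Vehicle 1 had that of Retnlg and Mmp8, and combination 2 that of Camp. Combination 2, however, had 1206 TPM of Retnlg, near the median of 1282 TPM.

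Palbociclib alone gave positive fold changes for all 10 genes, and none passed the test. The 10 genes vary together from library to library, as described below. Their signs in this and the next comparisons are therefore not 10 separate results. By edgeR's quasi-likelihood test with Benjamini-Hochberg adjustment over all 15308 genes, 0 of 10 were called in palbociclib against vehicle, where 0.0% of all genes were called. The log2 fold changes ran from 0.25 for Retnlg to 1.35 for Chil3 with a median of 1.00, while the median of all tested genes was -0.03. S100a8 averaged 32330 ± 18780 TPM in palbociclib and 15260 ± 12620 TPM in vehicle libraries (SD, n = 4 each), with a log2 fold change of 1.04 ± 0.77 (SE, edgeR adjusted p = 0.718). Ltf had 1.14 ± 0.66 (SE, edgeR adjusted p = 0.625, the smallest of the 10) and Chil3 1.35 ± 0.83 (SE, edgeR adjusted p = 0.656). The groups thus differed by less than the test could tell from the spread between libraries. Retnlg turned to -0.08 without vehicle 1 and to -0.04 without palbociclib 3, and the other 9 stayed positive whichever library was left out. In CPM, 0 of 10 genes separated the palbociclib from the vehicle libraries without overlap, against 5.04% of all tested genes.

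With rapamycin alone the log2 fold changes ran from -0.01 to 0.76. Their median was 0.30 and 9 of 10 were positive, and 0 of 10 were called, where 0.00653% of all genes were called. Chil3 had the largest value, 0.76 ± 0.82 (SE, edgeR adjusted p = 0.929), and Ltf the smallest, -0.01 ± 0.65 (SE, edgeR adjusted p = 1). Leaving out a single library turned the sign of S100a8, Ngp, Ltf, Lcn2, Mmp8 or Mmp9 in this comparison. Of the 10 genes, 0 separated the rapamycin from the vehicle libraries, against 3.07% of all tested genes.

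The combination of both drugs had fold changes of both signs against vehicle. Mmp8 had a log2 fold change of 1.78 ± 0.80 (SE, edgeR unadjusted p = 0.0404, adjusted p = 0.458), Chil3 1.59 ± 0.84 (SE, edgeR adjusted p = 0.54), Mmp9 1.03 ± 0.67 and Retnlg 0.91 ± 0.68. Camp had -0.96 ± 0.71 (SE, edgeR adjusted p = 0.699), Ltf -0.35 ± 0.65 and Ngp -0.20 ± 0.70. Leaving out a single library turned the sign of S100a8, Ngp or Ltf, and of no other member. Thus 7 of 10 were positive with a median of 0.48, and 0 of 10 were called, where 0.0% of all genes were called. Of the 10 genes, 0 separated the combination from the vehicle libraries in CPM, against 5.56% of all tested genes.

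Against palbociclib alone, the combination had negative fold changes for Camp, Ltf, Ngp, Lcn2, S100a8 and S100a9. Camp had a log2 fold change of -1.82 ± 0.72 (SE, edgeR unadjusted p = 0.0229) and Ltf -1.50 ± 0.66 (SE, edgeR unadjusted p = 0.0375), followed by Ngp at -1.18 ± 0.71. Retnlg, Mmp8, Mmp9 and Chil3 were positive, from 0.24 to 0.87. The edgeR adjusted p was 1 for all 10 genes, so 0 were called, where 0.0% of all genes were called. Against rapamycin alone, Camp had -1.28 ± 0.71 (SE, edgeR adjusted p = 0.604) and Mmp8 1.50 ± 0.79 (SE, edgeR adjusted p = 0.572), and 0 of 10 were called, where 0.0327% of all genes were called. Of the 10 genes, 0 separated the combination from the palbociclib libraries in CPM, against 3.85% of all tested genes, and 0 separated it from the rapamycin libraries, against 8.85%. The interaction, which asks whether palbociclib changed a gene differently with rapamycin present, was lowest for Camp at -2.14 ± 1.00 (SE, edgeR unadjusted p = 0.0486, adjusted p = 0.874), and 0 of 10 were called, where 0.0% of all genes were called. The 3 comparisons with vehicle share the vehicle libraries, and the 3 that hold the combination share those, so their values are not independent of each other.

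**Figure D2:**
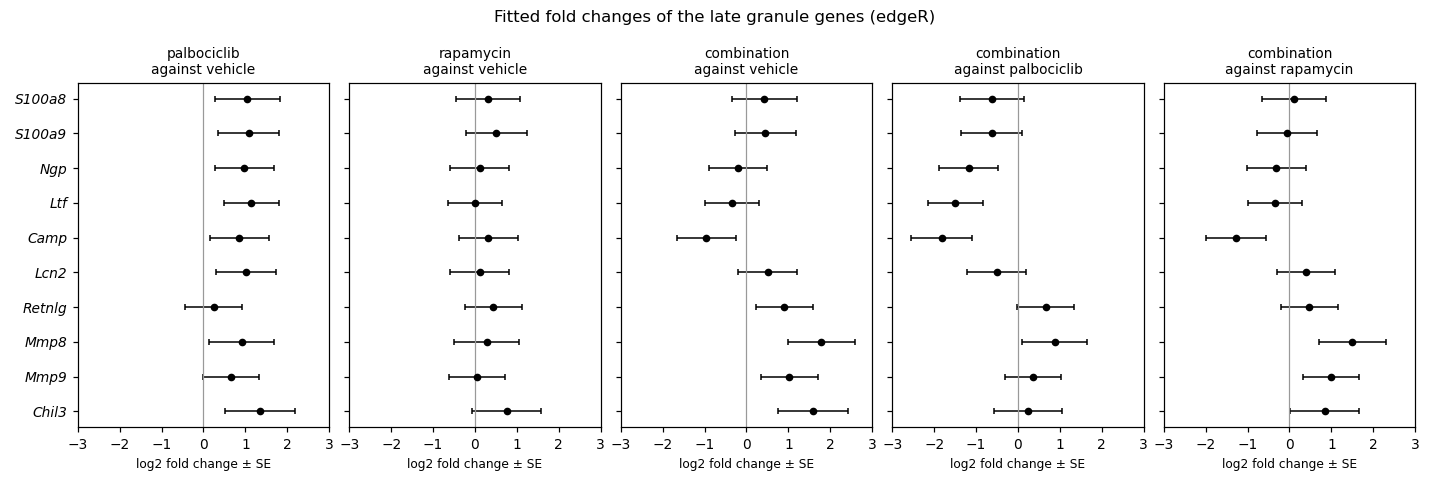
Fitted log2 fold change of each gene with its SE from edgeR, 1 panel per comparison, as the first-named group over the second. In palbociclib against vehicle all 10 points lie above 0, and in the combination Camp lies lowest and Mmp8 highest, from -0.96 to 1.78 against vehicle.

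Although the levels of single genes did not separate the groups, the genes moved together from library to library. All 45 pairs of the 10 genes were positively correlated in log2 CPM over the 16 libraries. Pearson's r ran from 0.572 for Camp with Mmp8 to 0.995 for S100a8 with S100a9 with a median of 0.899, and Spearman's rho from 0.547 to 0.988. All 45 pairs passed a two-sided permutation test adjusted over the 45 pairs (largest adjusted p = 0.0209 for r and 0.0308 for rho, with 1e-05 the smallest p that 100000 permutations can give). Without the 2 libraries farthest from the median, r ran from 0.476 to 0.994 with a median of 0.825. After the group means were subtracted, the lowest r of any pair was 0.846 (largest permutation adjusted p = 0.00109), so pairs correlated within the groups also. All 45 values rest on the same 16 libraries and on one set of library totals. The share of all pairs of genes that would pass is not given here. The count of 45 therefore describes these genes, chosen together by name, and not how unusual they are. The weakest pairs were those of Camp with Mmp8, Mmp9 and Retnlg, at r = 0.572, 0.611 and 0.643 over all libraries (permutation adjusted p = 0.0209, 0.0123 and 0.00818), with rho = 0.635, 0.547 and 0.594 (permutation adjusted p = 0.0106, 0.0308 and 0.0173). Within groups the same 3 pairs had r = 0.88, 0.905 and 0.924.

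The ratios between the genes were steadier than their levels, which follows from close correlation of genes with similar spread and is no separate result. The SD of the log2 TPM ratio over 16 libraries was below the SD of both genes' own log2 TPM for 43 of 45 pairs, with a median of 0.647 for the ratios and a range of 1.04 to 1.41 for the levels. The steadiest ratio was that of the calprotectin subunits, with an SD of 0.137. S100a8 stood at 1.22, 1.06, 1.25 and 1.12 transcripts per S100a9 transcript in combination libraries, 1.22, 1.04, 1.21 and 1.08 in palbociclib, 1.01, 1.08, 0.998 and 1.04 in rapamycin and 1.21, 1.28, 0.936 and 1.22 in vehicle libraries. No group stood apart in this ratio. Ngp to Ltf, both genes of secondary granules, was likewise at 3.18 to 4.99 in combination, 3.16 to 3.87 in palbociclib, 3.65 to 4.97 in rapamycin and 2.91 to 5.08 in vehicle libraries. S100a8 to Lcn2 ran from 5.8 to 6.8, 6.13 to 7.97, 6.3 to 9.73 and 4.85 to 8.83 in the same order of groups. The widest ratio was Camp to Mmp8, whose promoters are shown with the levels, with an SD of 1.26.

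**Figure D3:**
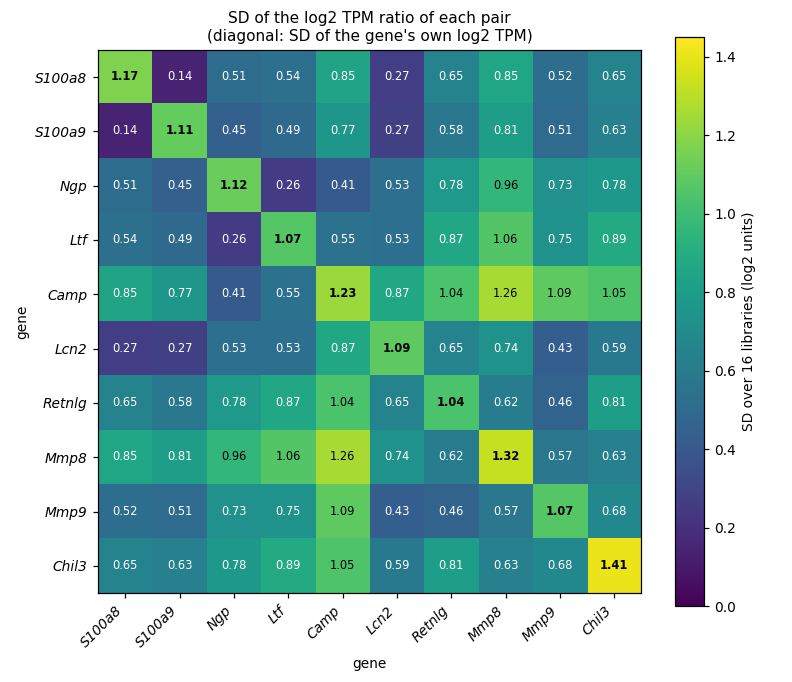
SD over the 16 libraries of the log2 TPM ratio of each pair of genes, with each gene's own SD of log2 TPM on the diagonal in bold. S100a8 with S100a9 is the steadiest pair at 0.14 log2 units and Camp with Mmp8 the widest at 1.26.

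Those ratios in which the combination libraries stood apart mostly joined Camp, Ngp or Ltf on one side with Mmp8, Mmp9, Retnlg or calprotectin on the other. Lcn2, described above together with Camp, Ngp and Ltf, did not go with them. Its ratios to these genes were higher in all combination than in all palbociclib libraries. Camp to Lcn2, for example, was 0.44 to 0.635 in combination and 0.95 to 1.97 in palbociclib libraries, though vehicle, at 0.621 to 3.25, overlapped. Lcn2 was itself low against Mmp9 in combination compared with vehicle and rapamycin libraries. Camp to Mmp8 was 8.01, 5.88, 3.56 and 3.95 in combination libraries, against 62.6, 24.7, 15.1 and 20.7 in palbociclib, 27.4, 28.1, 33.9 and 26.3 in rapamycin and 49.6, 40.6, 26.3 and 13.2 in vehicle libraries. All 4 combination libraries lay below all 12 others. The geometric means were 5.07 in combination, 26.4 in palbociclib, 28.8 in rapamycin and 28.9 in vehicle libraries. Turned round, there were 207 ± 72.4 transcripts of Mmp8 per 1000 of Camp in combination, 42.7 ± 20.8 in palbociclib, 34.9 ± 3.73 in rapamycin and 39.6 ± 25.2 in vehicle libraries (SD, n = 4 each).

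Camp to Mmp9 showed the same separation, at 7.58, 6.95, 8.03 and 10.1 in combination libraries, 56.4, 32.6, 31.9 and 26.9 in palbociclib, 35.9, 48.1, 50.5 and 32.9 in rapamycin and 45.3, 26.5, 68.8 and 17.3 in vehicle libraries. The 4 combination values spanned 6.95 to 10.1 although Camp itself varied from 702.3 to 2883 TPM among them. Camp to Retnlg was 1.08, 0.582, 0.876 and 0.85 in combination libraries, 7.17, 3.22, 3.28 and 4.33 in palbociclib, 2.27, 2.34, 4.52 and 2.77 in rapamycin and 4.61, 2.31, 4.66 and 2.57 in vehicle libraries. Retnlg thus exceeded Camp in 3 of 4 combination libraries and came close to it in the other, while Camp was more than 2-fold above Retnlg in each of the 12 other libraries. S100a9 to Camp was 10.8, 9.11, 10.9 and 8.63 in combination libraries, and ran from 3.28 to 5.58 in palbociclib, 2.45 to 5.3 in rapamycin and 1.6 to 6.69 in vehicle libraries.

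Camp was also low against its secondary granule neighbour. Ngp to Camp was 3.69, 3.57, 4.12 and 4.05 in combination libraries, 2.24, 2.85, 2.85 and 2.86 in palbociclib, 2.02, 1.93, 1.83 and 2.3 in rapamycin and 2.31, 2.86, 1.63 and 3.1 in vehicle libraries. Again no combination library overlapped another group. Ngp in turn was low against Mmp9, Mmp8 and Retnlg. Ngp to Mmp9 was 24.8 to 41.1 in combination, 77.1 to 126 in palbociclib, 72.4 to 93 in rapamycin and 53.6 to 112 in vehicle libraries. Ngp to Mmp8 was 14.7 to 29.6 in combination, 43.1 to 140 in palbociclib, 54.2 to 62.1 in rapamycin and 40.9 to 116 in vehicle libraries. Ngp to Retnlg was 2.08 to 3.99 in combination, 9.18 to 16.1 in palbociclib, 4.53 to 8.29 in rapamycin and 6.61 to 10.7 in vehicle libraries. Ltf to Mmp9 was 8.71, 7.8, 6.63 and 9.15 in combination libraries, 32.6, 25.8, 27.4 and 24.4 in palbociclib, 18.4, 18.7, 19.7 and 20.7 in rapamycin and 36, 19.3, 22.1 and 14.3 in vehicle libraries.

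**Figure D4:**
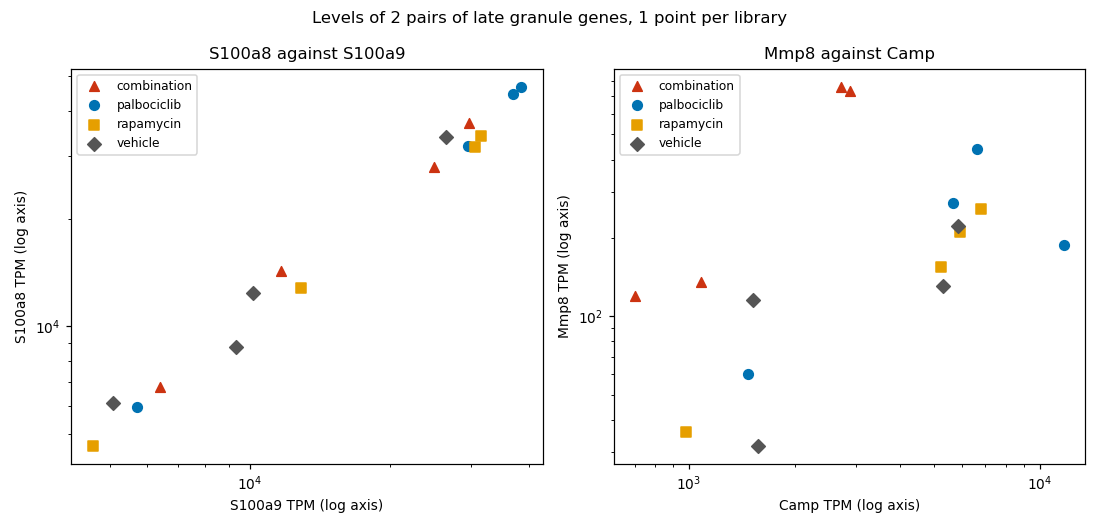
Levels in TPM on log axes of S100a8 against S100a9 and of Mmp8 against Camp, 1 point per library. The calprotectin points of all groups lie close to a line, while in the plot of Mmp8 against Camp the 4 combination libraries lie to the upper left of the other 12, where Camp to Mmp8 is 3.56 to 8.01 in them.

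Counted over all pairs, 0 of 45 ratios separated palbociclib from vehicle libraries, where 4.9% of the 66015795 pairs among 11491 genes did, and 0 of 45 separated rapamycin from vehicle libraries, where 2.79% of all pairs did. The combination libraries were separated from vehicle in 14 of 45 ratios (5.65% of all pairs), from palbociclib in 22 of 45 (3.73%) and from rapamycin in 19 of 45 (9.25%). In 11 of 45 ratios the 4 combination libraries lay apart from all 12 others, where 0.274% of all pairs did. That last comparison was chosen after the values were seen. Camp was the lower partner in 6 of the 11 (against S100a8, S100a9, Ngp, Retnlg, Mmp8 and Mmp9), Ngp in 3 (against Retnlg, Mmp8 and Mmp9) and Ltf in 1 (against Mmp9), and Mmp9 was high against S100a9 in the remaining one. The 45 ratios are built from only 10 genes that correlate, so they are far from independent, and the counts are a description without a test. With fewer libraries more ratios of any genes separate. Leaving out vehicle 4 gave 22 of 45 ratios that separated combination from vehicle libraries, against 11.6% of all pairs of genes. Without vehicle 3, vehicle 4 and rapamycin 3, the libraries of lowest correlation with the rest, 31 separated combination from vehicle, against 22.0% of all pairs, 22 separated rapamycin from vehicle, against 22.6%, and 15 set the combination apart from all the others, against 0.602%.

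**Figure D5:**
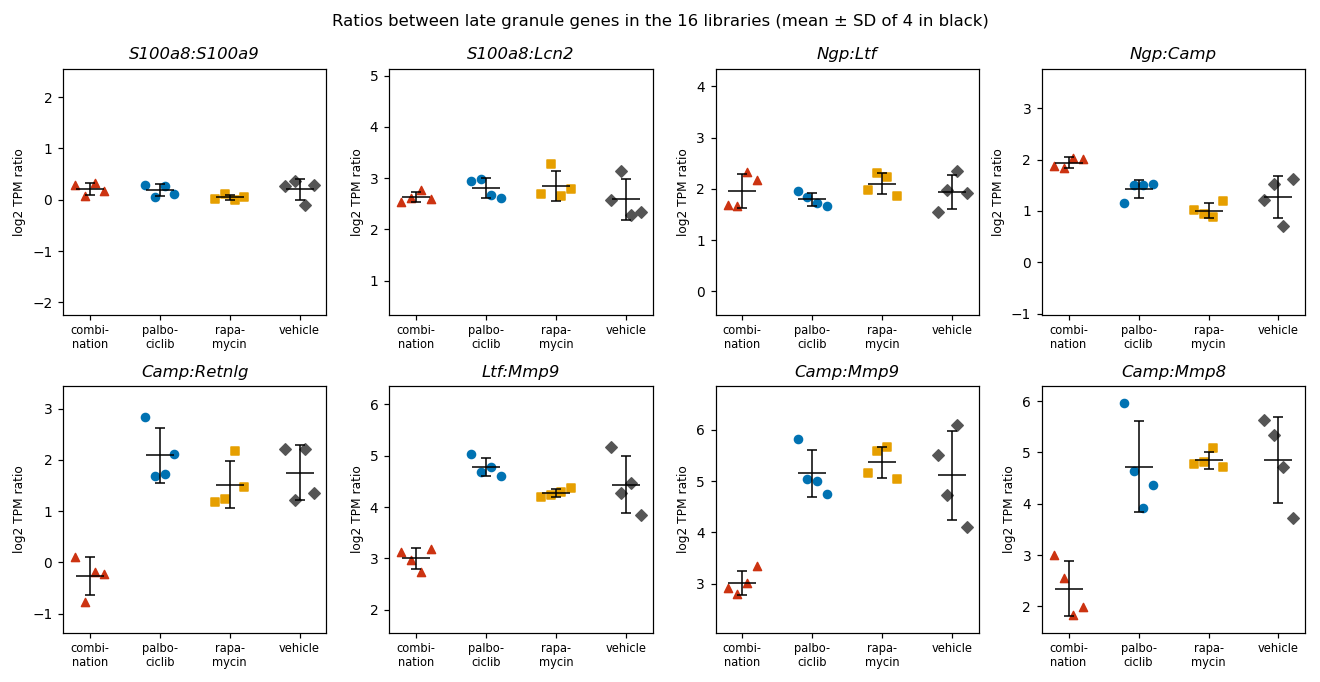
Log2 TPM ratio of 8 pairs in each library, with the mean ± SD of the 4 libraries of a group in black. The first 3 ratios overlap between all groups, and in the other 5 the combination libraries lie apart, for example at 6.95 to 10.1 for Camp to Mmp9.

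Levels of markers of other stages are given here beside these ratios. Vehicle 3, with the highest level of the azurophil granule gene Elane (7830 TPM) and of Cebpe (82 TPM), a transcription factor needed for secondary granules, had the lowest S100a9 to Camp ratio of all, 1.6. Rapamycin 3 had the next highest levels (5510 TPM of Elane and 52.4 TPM of Cebpe) and the next lowest ratio, 2.45. The order did not hold beyond these 2 libraries: vehicle 1, with 412 TPM of Elane and 4.6 TPM of Cebpe, had the third lowest ratio, 3.21, and rapamycin 2, with 4250 TPM of Elane, had a ratio of 5.3. In the combination libraries Elane was at 1620, 24.6, 4370 and 932 TPM and Cebpe at 10.5, 2.13, 16.8 and 8.7 TPM. Combination 3 thus had a high Elane level beside a high S100a9 to Camp ratio of 10.9. The Elane and Cebpe ranges of the combination libraries overlapped those of each other group. Elane does not stand for all listed azurophil genes. Mpo and Nkg7 were also highest in vehicle 3. Prtn3, Ctsg, Ms4a3, Serpinb1a, Clec12a, Igsf6, Srgn and Prss57 were highest in combination 3. Ctsc, Calr and Gstm1 were highest in rapamycin 3, and Mogat2 in palbociclib 1. The summed level of 16 stem cell markers was 1938 to 2533 TPM in combination, 769.5 to 1468 in palbociclib, 1188 to 1659 in rapamycin and 914.6 to 1860 TPM in vehicle libraries, so the combination libraries stood apart in this sum as well. The part of these differences in the ratios was not tested.

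The genes most like the 10 across libraries included other neutrophil genes. By Pearson's r with the mean of the 10 scaled log2 CPM profiles over 16 libraries, given without a test, the leading genes among 10973 were Pglyrp1, an antibacterial peptidoglycan-binding granule protein (r = 0.988), Wfdc21 (0.985), Itgb2l (0.981), Ncf1, a cytosolic subunit of the NADPH oxidase (0.975), Mcemp1 (0.972), Cd177, a neutrophil surface protein (0.968), Vsir (0.965), Xdh (0.959), Mrgpra2b (0.953) and Cd300lf (0.951). Pglyrp1 ran from 133 to 1130 TPM and Cd177 from 57.6 to 779 TPM. The least alike were Phpt1 (-0.863), Nop10 (-0.842), Crtap (-0.84), C1qtnf6 (-0.83) and Tmem106c (-0.828). The nearest genes differed between members. Ngp was followed by Plbd1 (0.97) and Alox5 (0.96), Ltf by Alox5 (0.951) and Camp by Gsn (0.934) and Tmem216 (0.932). Mmp8 was followed by the receptors Trem1 (0.966) and Ccr1 (0.963), Retnlg by Trem1 (0.941), Mmp9 by Twf2 (0.952) and Litaf (0.95), and Chil3 by Anxa1 (0.971) and Mcemp1 (0.962). S100a8 and S100a9 were closest to Pglyrp1 and Ncf1, and Lcn2 to Ncf1 (0.98) and Itgb2 (0.976). All of these values come from the same 16 libraries.

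None of the other listed genes of neutrophil maturation was called in any comparison, where 0.0% to 0.0327% of all genes were called. Of 27 other secondary and tertiary granule genes, 20 had positive fold changes in combination against vehicle (median log2 fold change 0.50), 25 in palbociclib against vehicle (0.73) and 15 in rapamycin against vehicle (0.05). Of 17 neutrophil receptors and surface proteins, 15, 16 and 12 were positive in the same 3 comparisons, with medians of 0.99, 0.74 and 0.16. Of 15 azurophil granule genes, which are switched on before the 10, 9, 10 and 6 were positive, with medians of 0.33, 0.35 and -0.04. Of 14 transcription factors of granule genes, 6, 7 and 7 were positive, with medians of -0.13, 0.02 and -0.01. Of 12 tested partners, receptors and inhibitors of the proteins, such as Tlr4 and Timp1, 7, 7 and 6 were positive, with medians of 0.12, 0.05 and 0.04. The corresponding medians of all tested genes were -0.02, -0.03 and -0.01. Many of the listed genes varied with the 10 across libraries, so the counts of signs are not independent results.

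Of the markers of other cells, 15 monocyte and macrophage genes summed to 288.5 to 2689 TPM in combination, 388.9 to 2804 in palbociclib, 513.4 to 2680 in rapamycin and 700.6 to 2632 TPM in vehicle libraries, with 8, 10 and 9 of 15 positive in the 3 comparisons with vehicle. B cell genes summed to 44.05 to 61.12 TPM in combination, 60.97 to 362.2 in palbociclib, 60.27 to 124.2 in rapamycin and 66.66 to 2559 TPM in vehicle libraries, and 0, 1 and 1 of 8 tested were positive. Erythroid genes summed to 606 to 1100 TPM in combination, 448.6 to 2284 in palbociclib, 1783 to 2978 in rapamycin and 534.9 to 2693 TPM in vehicle libraries. T and NK cell genes, of which the granule protein gene Nkg7 had the highest level, summed to 251 to 783.1 TPM in combination, 264.5 to 938.5 in palbociclib, 259.2 to 776.4 in rapamycin and 218.4 to 1131 TPM in vehicle libraries. In the comparisons of the combination, palbociclib and rapamycin with vehicle, 0, 1 and 0 of 8 T and NK cell genes tested were positive, with median log2 fold changes of -3.25, -1.39 and -1.73. In the same order of comparisons, 1, 4 and 9 of 9 erythroid genes, 1, 4 and 4 of 7 megakaryocyte genes, 4, 4 and 5 of 8 eosinophil, basophil and mast cell genes and 5, 6 and 6 of 7 stromal and endothelial genes were positive. No marker in these lists was called, as against 0.0% to 0.0327% of all genes in the 6 comparisons, and their part in the granule gene values was not tested.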

How the data were processed

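Gene levels were measured by RNA sequencing of 16 libraries of sorted mouse HSCs, prepared with a low-input RNA kit, per the labels' protocols. The submitters' processing notes name STAR 2.5.3a, RSEM 1.3.0, SAMtools 1.3 and the build mm10. The authors deposited expected counts per gene, already whole numbers, and the same genes' TPM as log2(TPM + 1). TPM was recovered from the deposited log2 values. Strand is not stated in the sources used here, but no annotated gene overlaps the exons of the 10. Symbols and coordinates came from GENCODE M21 (GRCm38), which named 50376 of 50686 IDs.

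The test was that of edgeR 4.0.16, run in R 4.3.3 (filterByExpr with a minimum count of 10 and a minimum total of 15, TMM factors, a mean per group over all 16 libraries, quasi-likelihood F test). P-values were adjusted by Benjamini-Hochberg over all 15308 genes, at a threshold of 0.05. Ratios were taken from TPM within a library and got no test. The genes and lists were chosen with earlier results of these data known. All 10 genes were named in each comparison, and genes alike were the 10 of highest and the 5 of lowest correlation with their mean, leaving out predicted genes. The main fit did not pair libraries by replicate number. In 24 same-numbered pairs, deviations from the group means correlated at -0.21 to 0.348. Their median was 0.0422, against -0.0195 for pairs of unlike number. Whether the numbers mark a pairing was not tested. A planned comparison of protein sequences was not made. Alternatives were DESeq2 1.42.0, limma 3.58.1, other normalization and filters, a replicate block, fewer groups and each library left out. The fitting was tested on simulated counts.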

Additional observations from a re-analysis of the deposited data

Results flagged for a closer look

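Among 68 sets of 4 libraries of 1 group, 2 held a single library far from the other 3, and chance gives about 1 such set in 20. Mmp9 stood at 45.36 TPM in palbociclib replicate 2, against 207.4 to 210.3 TPM in the other palbociclib libraries. Chil3 stood at 461.2 TPM in rapamycin replicate 1, against 3576 to 3988 TPM in the other rapamycin libraries. Both libraries were the lowest of their group for all 10 genes.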

How the results depend on the processing

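None of the 10 genes was called in any comparison under any of 23 alternatives, and the smallest adjusted p was 0.343 (Mmp8, combination against vehicle, DESeq2, log2 fold change 1.77). With a replicate block in edgeR, 0 of the 10 were called. Of all genes, this fit called 1, 1 and 0 in palbociclib, rapamycin and combination against vehicle. It called 0 and 11 in combination against palbociclib and against rapamycin, and 0 in the interaction. Of 16 libraries, 8 correlated best with one of their own number, and whether this exceeds chance was not tested. DESeq2 called 137, 115, 207, 20, 205 and 45 of all genes in the same order, edgeR 0, 1, 0, 0, 5 and 0 with 1456, 1171, 1611, 436, 1498 and 868 at an unadjusted p under 0.05, and limma on log2(TPM + 1) 0, 0, 0, 0, 13 and 0.

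Of 1370 recomputed log2 fold changes, 58 changed sign, each of them far from the threshold. The cause was not tested. Under the replicate block, Mmp9 in rapamycin against vehicle was -0.0633, Chil3 in combination against palbociclib -0.0151, S100a9 in combination against rapamycin 0.07 and Retnlg in the interaction -0.108. Without a filter, Ltf in rapamycin against vehicle was 0.000199, and with limma, Chil3 in combination against palbociclib was -0.00338. Without vehicle 3, vehicle 4 and rapamycin 3, left out after the data were seen, Ngp and Mmp9 in rapamycin against vehicle were -0.0419 and -0.0659, S100a8 in combination against rapamycin -0.0655 and Mmp8 in the interaction -0.0983.

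Leaving out 1 library at a time gave these ranges where the sign changed. In palbociclib against vehicle, Retnlg ran from -0.079 to 0.91. In rapamycin against vehicle, S100a8 ran from -0.071 to 1.08, Ngp from -0.22 to 0.63, Ltf from -0.50 to 0.52, Lcn2 from -0.27 to 0.50, Mmp8 from -0.062 to 0.64 and Mmp9 from -0.41 to 0.62. In combination against vehicle, S100a8 ran from -0.057 to 1.20, Ngp from -0.55 to 0.32 and Ltf from -0.63 to 0.18. In combination against palbociclib, Mmp9 ran from -0.022 to 0.62 and Chil3 from -0.37 to 0.62. In combination against rapamycin, S100a8 ran from -0.37 to 0.50, S100a9 from -0.48 to 0.30, Ngp from -0.67 to 0.015, Ltf from -0.69 to 0.15 and Lcn2 from -0.010 to 0.78. In the interaction, Retnlg ran from -0.44 to 0.55 and Mmp9 from -0.26 to 0.77.

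Taken from TPM, the share of the 10 genes was 6.16% in combination, 9.81% in palbociclib, 6.5% in rapamycin and 4.71% in vehicle libraries. With 1 library left out, ratios without overlap numbered 0 to 3 of 45 in palbociclib against vehicle (6.21% to 10.8% of all pairs of genes), 0 to 6 in rapamycin against vehicle (4.38% to 6.93%), 14 to 22 in combination against vehicle (6.74% to 11.6%), 22 to 28 against palbociclib (5.87% to 7.73%), 19 to 25 against rapamycin (11.1% to 14.7%) and 11 to 14 against all 12 others (0.3% to 0.746%). Without the 3 libraries named above, they numbered 2, 22 and 31 against vehicle for palbociclib, rapamycin and the combination, where 20.6%, 22.6% and 22.0% of all pairs separated. With CPM in place of TPM, the counts for the combination against palbociclib, rapamycin and the other 12 libraries were 22, 20 and 11. Correlated pairs numbered 44 or 45 of 45 when a library was left out. The share of all pairs of genes that would pass is not given for these either. With 4 libraries a group, a 2.06-fold difference in S100a8 (palbociclib against vehicle) did not pass the test; within groups S100a8 spanned 5.47-fold (combination) to 7.85-fold (palbociclib).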
